A study of Mus musculus with 10 samples.

Results

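Proteasome genes were taken as every row of the deposited expression table whose symbol begins with Psma, Psmb, Psmc, Psmd or Psme and goes on with a digit. There were 44 such genes among 11617 listed genes, and all 44 reached the level required for testing. They comprised 5 immunoproteasome genes (Psmb8, Psmb9, Psmb10, Psme1 and Psme2), 36 constitutive subunits, activators and assembly chaperones, and 3 further matches. The 3 further matches were Psma8, a 20S subunit known from testis, Psmc3ip, a meiotic recombination factor that is no proteasome subunit, and Psme2b, a copy of Psme2 by its symbol that GENCODE M21 tags as a retrogene.

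The macrophages came from the bone marrow of C57BL/6 mice and were grown in DMEM with 10% FBS and 50 ng/ml of the growth factor GM-CSF, and their poly-A RNA was sequenced. There were 5 groups of 2 libraries: AmTARS for 1 h, AmTARS for 3 h, Pam3csk4 for 1 h, Pam3csk4 for 3 h, and an untreated control whose labels give no time. The series title presents AmTARS and Pam3csk4 as ligands of the receptor TLR2. In work on the gut bacterium Akkermansia muciniphila, AmTARS is the name of its threonyl-tRNA synthetase, and Pam3csk4 is a synthetic lipopeptide that activates TLR2. Pam3csk4 was given at 10 ng/ml, whereas the AmTARS dose is written as 0.5 mm in the labels, so that the doses cannot be set against each other. Mouse age is given as 6 weeks for the strain and 7 weeks for the isolation of the cells.

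Reads in the listed genes ran from 27398791 to 37559810 per library. Whether the 2 libraries of a group had separate mice or dishes as their source is not stated, and p-values here measure the spread between these libraries alone, which may be technical. All 8 macrophage markers were listed, at a summed level of 49600 to 53000 CPM (reads divided by the scaled library size, times 1000000) in the treated libraries and 48700 and 50500 CPM in the control libraries. Of these 8 markers 4, 3, 5 and 4 fell against control in the order AmTARS 1 h, AmTARS 3 h, Pam3csk4 1 h and Pam3csk4 3 h, and 0, 0, 0 and 2 rose. No B cell or NK cell marker of 4 each was listed, of 6 T cell markers Cd4 alone was listed, and of 6 dendritic cell markers 2 were listed. Of 7 neutrophil markers 6 were listed (Ly6g was not). Their sum was 1870 to 2450 CPM in treated libraries, against 1390 and 1480 CPM in control libraries. Those called higher were 5, 4, 5 and 5 of the 6 in that order, and 1 was called lower with Pam3csk4 at 1 h. The sum of 4 fibroblast markers was 1330 to 1550 CPM in treated libraries, against 1530 and 1610 CPM in control libraries. Of these 4 markers 3, 1, 0 and 2 were called lower. The marker sums were not adjusted for the total CPM of a library, which was lower in the control libraries. All these marker counts are as deposited, without the correction for transcript length described further on. They stand against 18.9%, 18.8%, 23.9% and 24.7% of all tested genes called higher, and 19.8%, 17.9%, 24.8% and 24.2% called lower. The part of these markers in the results on proteasome genes was not tested, and in such bulk RNA fewer cells of a type cannot be told apart from less RNA per cell.

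The proteasome degrades proteins tagged with ubiquitin. Its 20S core is a barrel of outer alpha rings and inner beta rings, and the beta subunits Psmb6, Psmb7 and Psmb5 carry the caspase-like, trypsin-like and chymotrypsin-like activities. In immune cells Psmb9, Psmb10 and Psmb8 can take the places of Psmb6, Psmb7 and Psmb5, which gives the immunoproteasome, a particle known for making peptides for MHC class I. The 19S cap recognises, unfolds and feeds substrates with its Psmc ATPases and Psmd subunits. The PA28 cap, built of Psme1 and Psme2, opens the core in another way and is known to be induced by interferon.

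Per kilobase of transcript, the highest mean levels over all 10 libraries were those of Psmb6, at 274 CPM per kb (205 to 348 over libraries), and Psmd8, a 19S lid subunit, at 243 CPM per kb (210 to 267). Psme2 followed with 185 CPM per kb (138 to 243), Psme1 with 176 CPM per kb (147 to 195) and Psmb8 with 137 CPM per kb (115 to 156). Each of these neighbours in the order overlapped the next in its range over the libraries of all groups. Within every group, though, the mean of Psmd8 lay above that of Psme2, and that of Psme1 above that of Psmb8. In the control libraries Psmd8 (210 CPM per kb) and Psmb6 (208 CPM per kb), and Psme1 (148 CPM per kb) and Psme2 (142 CPM per kb), stood in the other order. Among the catalytic subunits, Psmb10 averaged 96.5 CPM per kb (72.7 to 112), Psmb5 averaged 90.4 CPM per kb (67.6 to 105), Psmb7 averaged 76.7 CPM per kb (60.6 to 89.9), and Psmb9 averaged 45.1 CPM per kb (35.9 to 52.2). Immunoproteasome transcripts were present in the untreated cells already: Psmb8 stood above Psmb5 per kb of transcript in every library, at 1.7 and 1.66 times its level in the control libraries. Lengths here are those of the principal transcript. The median over a gene's transcripts can differ, as for Psme1 (711 against 1112 nt) and Psmb5 (760.5 against 899 nt). The order of the genes and the size of that ratio depend on this choice. At the low end stood Psma8, at 0.768 CPM per kb, Psmc3ip, at 0.945 CPM per kb, and Psme2b, at 3.28 CPM per kb, with 27 to 153 reads per library between them.

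Promoters were read for the genes that the results turn on, from RefSeq on GRCm38.p6. Each is the 250 bases before the start in that source, 5′ to 3′ on the strand of the gene. The windows of Psma6 and Psmb9 lie wholly inside the GENCODE M21 gene intervals, chr12:55384222-55418454 and chr17:34181987-34187764. They are thus not upstream of the whole gene. Capitals mark the motif named with each gene, searched on both strands. They are shown because Psmb5 and Psmb6 are catalytic subunits that rose with either ligand as deposited, Psma6 and Psmd10 are among the genes that differed between the ligands at 3 h, and Psmb9 is the immunoproteasome counterpart of Psmb6. For Psmb5 (chr14:54617996-54618245, minus strand) and Psmb6 (chr11:70525107-70525356, plus strand) capitals mark TGACNNNGC, the antioxidant response element that NRF1 and NRF2 bind with small MAF partners. For Psma6 (chr12:55398575-55398824, plus strand) they mark the ETS core CCGGAAG, and for Psmd10 (chrX:140956712-140956961, minus strand) and Psmb9 (chr17:34187331-34187580, minus strand) the CCAAT box, read as ATTGG on the other strand.
Psmb5: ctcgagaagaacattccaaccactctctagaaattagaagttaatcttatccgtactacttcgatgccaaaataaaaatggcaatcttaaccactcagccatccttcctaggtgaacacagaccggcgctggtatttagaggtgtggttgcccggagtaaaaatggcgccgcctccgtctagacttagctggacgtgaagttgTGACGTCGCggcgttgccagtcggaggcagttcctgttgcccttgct
Psmb6: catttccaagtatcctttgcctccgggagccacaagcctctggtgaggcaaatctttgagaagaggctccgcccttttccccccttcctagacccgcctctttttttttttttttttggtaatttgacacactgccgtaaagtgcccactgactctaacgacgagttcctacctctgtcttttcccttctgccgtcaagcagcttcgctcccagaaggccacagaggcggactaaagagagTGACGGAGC
Psma6: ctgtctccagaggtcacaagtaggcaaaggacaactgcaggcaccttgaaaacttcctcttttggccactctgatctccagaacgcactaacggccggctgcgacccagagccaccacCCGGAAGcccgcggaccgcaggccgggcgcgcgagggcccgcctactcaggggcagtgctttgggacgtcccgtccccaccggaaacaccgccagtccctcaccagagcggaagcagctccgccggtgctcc
Psmd10: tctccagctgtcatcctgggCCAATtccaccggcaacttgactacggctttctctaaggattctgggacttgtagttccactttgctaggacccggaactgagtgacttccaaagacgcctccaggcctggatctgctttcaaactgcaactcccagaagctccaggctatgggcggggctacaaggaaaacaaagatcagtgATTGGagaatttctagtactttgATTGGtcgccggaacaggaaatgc
Psmb9: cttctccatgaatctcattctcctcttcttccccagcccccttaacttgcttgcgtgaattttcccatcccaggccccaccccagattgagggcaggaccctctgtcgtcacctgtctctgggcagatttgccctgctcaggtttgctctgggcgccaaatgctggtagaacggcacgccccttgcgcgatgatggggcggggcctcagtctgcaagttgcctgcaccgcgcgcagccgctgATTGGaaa

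Motif matches were compared with all promoters of the same length. Of the 44 genes 37 had a promoter in the table, with 40 windows in all, against 32851 windows for all genes. TGACNNNGC was in 12.5% of the proteasome windows (Psmb5, Psmb6, Psmc6, Psmd9 and Psmd12) and in 10.2% of all windows. CCGGAAG was in 32.5% of the proteasome windows and in 6.91% of all windows, and CCAAT in 35.0% and 33.8%. The interferon-stimulated response element, searched as GAAA, any 2 bases and GAAA again, was in 7.5% (Psmb3, Psmd4 and Psmd9) and in 2.98% of all windows, the gamma-activated site, TTCNNNGAA, in 2.5% (Psmb8) and 7.02%, and the kappa-B consensus in 2.5% (Psmd12) and 3.9%. These shares describe letters in a short window and say nothing of binding in these cells.

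In macrophages treated with AmTARS for 1 h, proteasome genes stood above the untreated control by small margins. Of 44 genes 29 rose and 2 fell (limma, adjusted p below 0.05), in a comparison that called 18.9% of all 11407 tested genes higher and 19.8% lower. The median log2 fold change of the 44 genes was 0.22, against -0.002 for all tested genes. After 3 h of AmTARS, 32 rose and 1 fell, with 18.8% of all tested genes called higher and 17.9% lower and a median of 0.23. The CPM of the 44 genes summed to 4725 and 4659 in the AmTARS 1 h libraries and to 4894 and 4692 in the AmTARS 3 h libraries, against 4006 and 4127 in the control libraries. Such sums carry the scaling between libraries. The CPM of all listed genes summed to 959639 and 960837 in control libraries and to 998260 to 1037796 in treated libraries of either ligand. Both AmTARS libraries lay above both control libraries in 36 genes at 1 h and below them in 5, which 34.8% and 35.6% of all tested genes did, and at 3 h in 39 and 2 genes, against 35.9% and 35.4% of all tested genes. The count of changed genes at 1 h went down to 19 without control replicate 2, and that at 3 h to 21 without AmTARS 3 h replicate 1.

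Pam3csk4 gave the same kind of picture against the same 2 control libraries. At 1 h 31 genes rose and 2 fell, with 23.9% of all tested genes called higher and 24.8% lower. At 3 h 39 rose and 2 fell, with 24.7% of all tested genes called higher and 24.2% lower. The medians were 0.26 at 1 h and 0.29 at 3 h on the log2 scale. Both libraries lay above both control libraries in 38 genes at 1 h and below them in 3, against 37.6% and 38.2% of all tested genes, and at 3 h in 42 and 2 genes, against 37.1% and 38.5%. The summed CPM was 5020 and 4744 in the Pam3csk4 1 h libraries and 4800 and 5266 in the Pam3csk4 3 h libraries. Because the 4 comparisons share their control libraries, a control library that is low for a gene raises that gene in all of them.

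**Figure D1:**
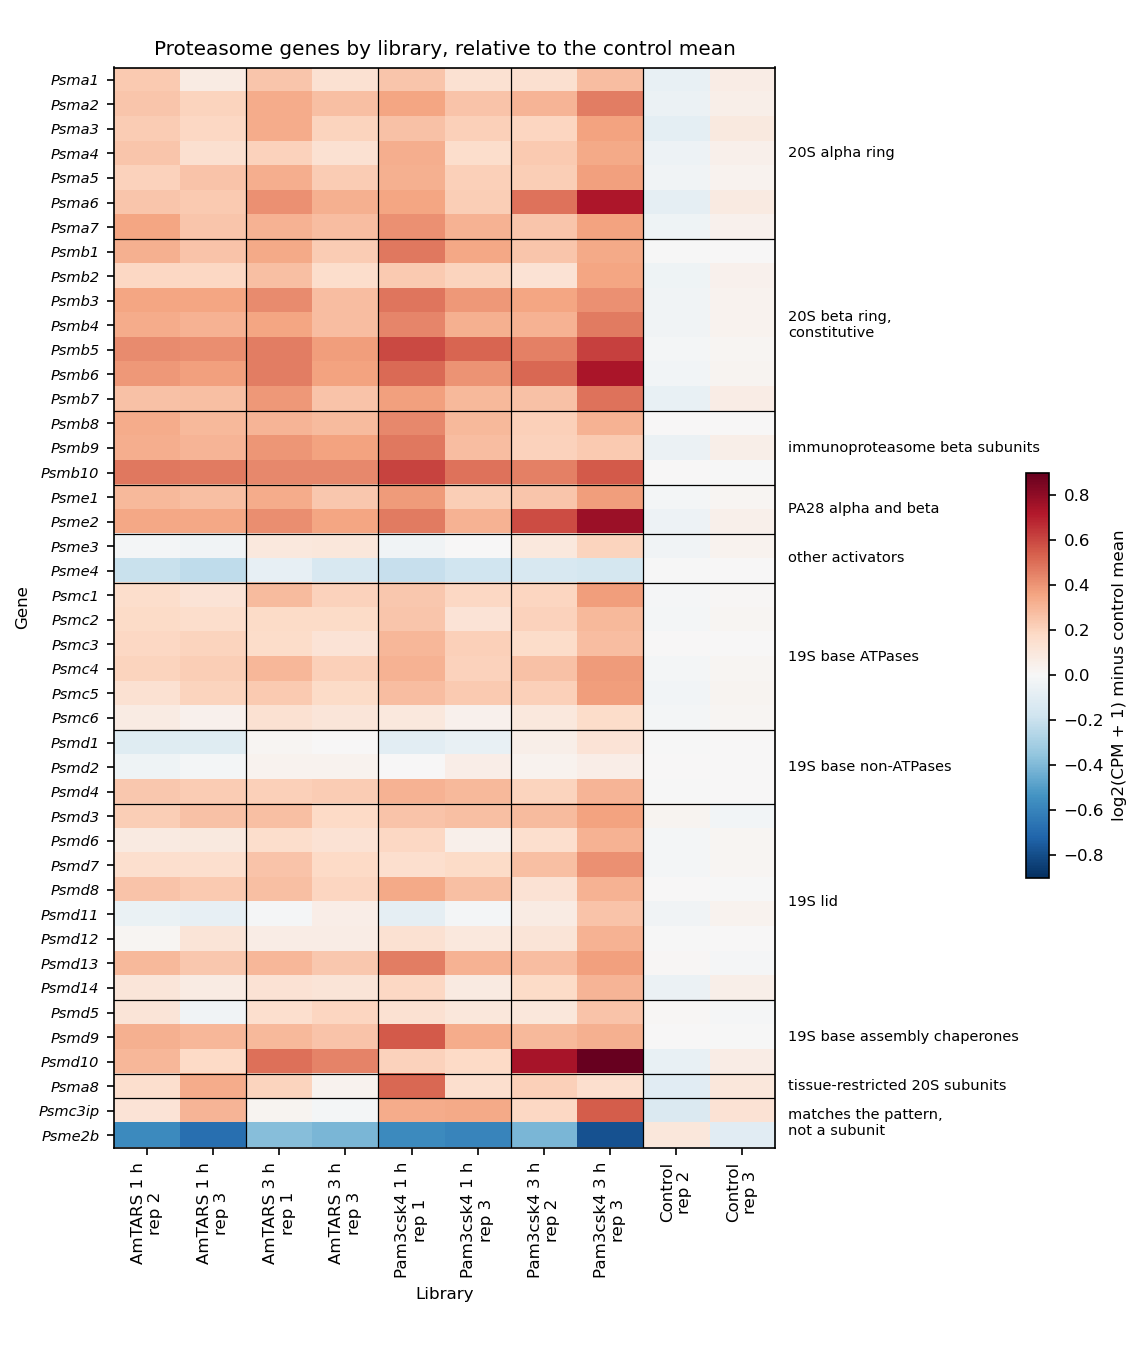
Log2(CPM + 1) of each of the 44 proteasome genes in each of the 10 libraries minus the mean of the control libraries, grouped by place in the particle. Nearly all 20S, immunoproteasome and PA28 rows are red (higher) in the 8 treated libraries, Psme2b and Psme4 are blue (lower), and Psmd10, Psme2, Psmb6 and Psma6 are darkest in the Pam3csk4 3 h libraries.

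By place in the particle, nearly all of the 14 constitutive 20S subunits rose with either ligand. In the AmTARS 1 h comparison 13 of 14 rose with a median log2 fold change of 0.26, and 14 of 14 rose with AmTARS at 3 h and with Pam3csk4 at 1 h and 3 h, with medians of 0.30, 0.32 and 0.35. Of the 17 subunits of the 19S cap 9 rose with AmTARS at 1 h, 10 with AmTARS at 3 h, 10 with Pam3csk4 at 1 h and 15 with Pam3csk4 at 3 h, with medians of 0.15, 0.17, 0.18 and 0.24. In the base, Psmd4, a ubiquitin receptor, rose by 0.24, 0.22, 0.30 and 0.26 as deposited, and the ATPase Psmc6 rose with Pam3csk4 at 3 h alone (0.13, SE 0.05). In the lid, Psmd13 rose by 0.26, 0.26, 0.38 and 0.32, and Psmd14, the enzyme that cuts ubiquitin chains off substrates, rose with Pam3csk4 at 3 h alone (0.24, SE 0.06). After the correction for transcript length and GC content described further on, Psmd13 kept its calls, Psmd4 and Psmd14 had none, and Psmc6 passed with AmTARS at 3 h (0.14) and not with Pam3csk4 at 3 h (0.05). Psmd2, a large scaffold subunit of the 19S base, passed the test in none of the 4 comparisons, with log2 fold changes of -0.02, 0.03, 0.03 and 0.05. All 5 immunoproteasome genes rose in all 4 comparisons, with medians of 0.32, 0.38, 0.38 and 0.31, in comparisons that called 18.9%, 18.8%, 23.9% and 24.7% of all tested genes higher. After the correction 2, 4, 2 and 3 of these 5 genes were higher, and 4, 8, 5 and 10 of the 14 constitutive 20S subunits. The corrected comparisons called 8.11%, 10.8%, 11.6% and 20.7% of all genes higher in the same order. The 36 constitutive genes had medians of 0.20, 0.22, 0.25 and 0.29. No test was made of the difference between these groups of genes. Of the further matches, Psma8 passed in none of the 4 comparisons, and Psmc3ip rose with Pam3csk4 at 3 h alone (0.37, SE 0.14), where it was at 1.2 and 1.83 CPM, against 0.771 and 1.12 CPM in the control libraries. That call was lost after the correction (0.20).

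The immunoproteasome beta subunits Psmb8, Psmb9 and Psmb10 rose by a fold of at most 1.47. Psmb10 was at 133 and 132 CPM in the AmTARS 1 h libraries, 129 and 129 CPM at 3 h, 146 and 134 CPM in the Pam3csk4 1 h libraries and 131 and 140 CPM at 3 h, against 95.5 and 95.3 CPM in the control libraries. All 8 treated libraries lay above both control libraries. Its log2 fold changes were 0.47 (SE 0.05, adjusted p = 4.22e-06), 0.43 (SE 0.05, adjusted p = 8.49e-06), 0.55 (SE 0.05, adjusted p = 1.48e-07) and 0.50 (SE 0.05, adjusted p = 9.58e-08). Psmb10 lies at chr8:105935735-105938444 on the minus strand (mm10).

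Psmb8 was at 236 and 229 CPM with AmTARS at 1 h, 231 and 228 CPM at 3 h, 253 and 229 CPM with Pam3csk4 at 1 h and 217 and 233 CPM at 3 h, against 187 CPM in both control libraries. The groups did not overlap with the control, and the log2 fold changes were 0.31, 0.30, 0.36 and 0.27 (SE 0.05 each). Psmb9 was at 63.6 and 62.7 CPM with AmTARS at 1 h, 66.8 and 65.3 CPM at 3 h, 70.6 and 61.5 CPM with Pam3csk4 at 1 h and 58.4 and 59.6 CPM at 3 h, against 48.6 and 52.5 CPM in the control libraries. Its treated libraries also lay above both control libraries, and its log2 fold changes were 0.32, 0.38, 0.38 and 0.22 (SE 0.06 each). The last of these lost its call without control replicate 2 (0.17). Psmb8 (chr17:34197721-34201454, plus strand) and Psmb9 (chr17:34181987-34187764, minus strand) lie close together, next to the peptide transporter genes Tap1 and Tap2 in the MHC region.

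The constitutive counterparts rose as well in the values as deposited. Psmb5 was at 82.7 and 82.2 CPM with AmTARS at 1 h, 85.0 and 79.8 CPM at 3 h, 93.2 and 88.6 CPM with Pam3csk4 at 1 h and 84.2 and 94.5 CPM at 3 h, against 60.7 and 62.0 CPM in the control libraries. Every treated library lay well above both control libraries, with log2 fold changes of 0.42, 0.42, 0.56 and 0.53 (SE 0.06 each, adjusted p at most 3e-05). Psmb7 was at 88.9 and 89.1 CPM with AmTARS at 1 h, 97.2 and 88.3 CPM at 3 h, 95.4 and 90.5 CPM with Pam3csk4 at 1 h and 88.8 and 104 CPM at 3 h, against 70.3 and 77.4 CPM in the control libraries. Its log2 fold changes were 0.27, 0.33, 0.33 and 0.38 (SE 0.07 each), and the first of these lost its call without control replicate 2 (0.20). Psme1, the alpha subunit of PA28, was at 202 and 199 CPM, 208 and 195 CPM, 216 and 193 CPM, and 196 and 214 CPM in the same order of groups, against 163 and 167 CPM in the control libraries. Its log2 fold changes were 0.28, 0.29, 0.31 and 0.31 (SE 0.06 each).

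**Figure D2:**
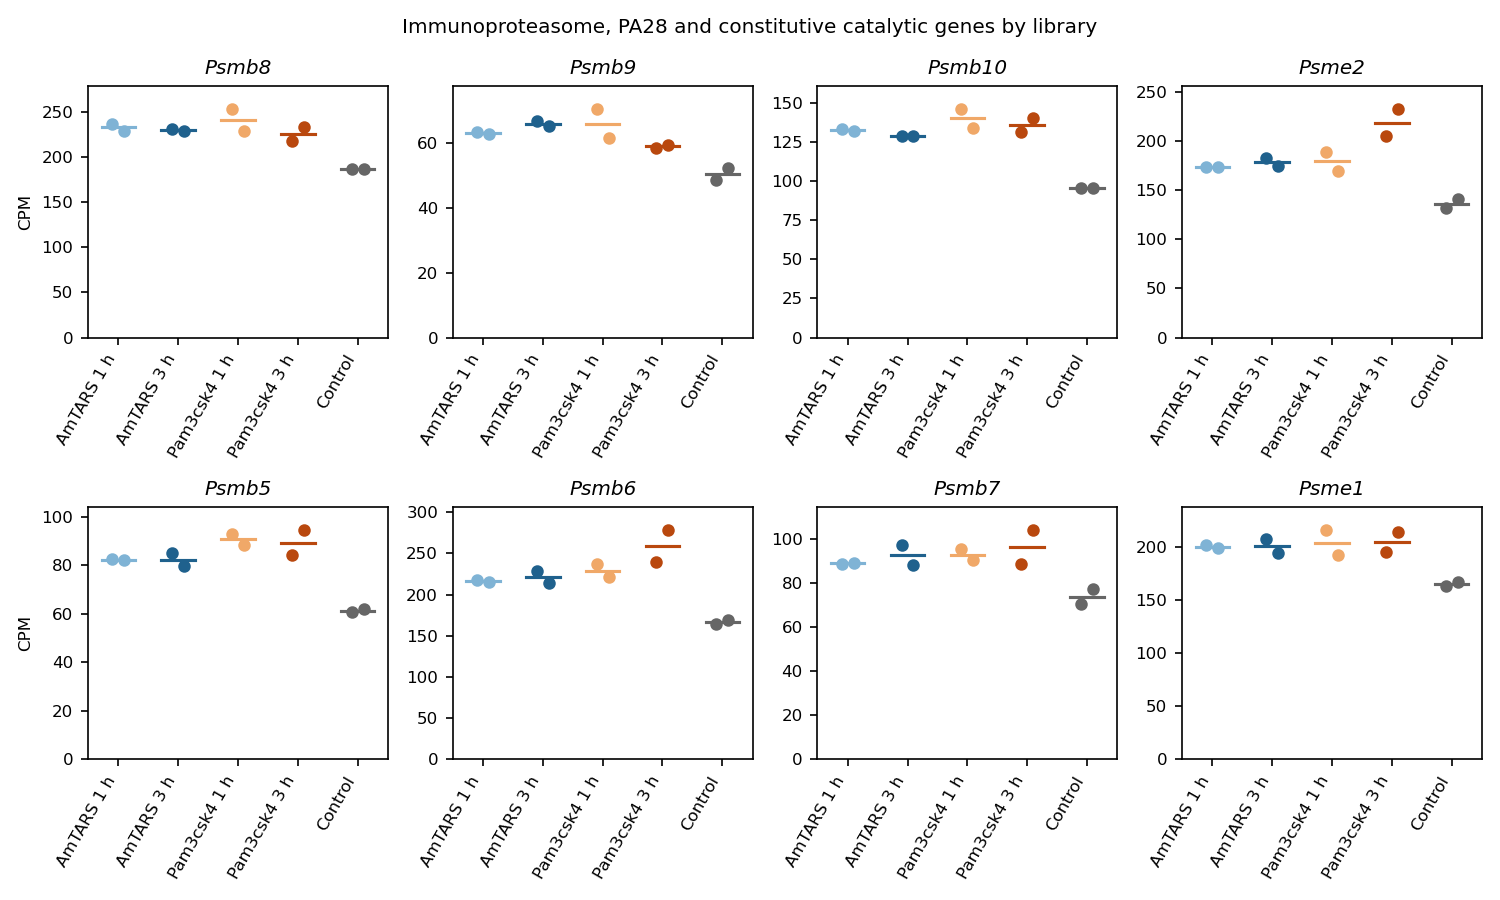
CPM in each library (points) and the group mean (line) for the immunoproteasome subunits, the constitutive subunits they replace and the PA28 genes, with axes that start at 0. In each panel the 8 treated libraries lie above the 2 control libraries.

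Ratios within a library, which do not depend on the scaling between libraries but do carry the trend on transcript length described further on, showed no common shift towards immunoproteasome subunits. The log2 ratio of Psmb8 to Psmb5 was lower in treated cells: 1.51 and 1.48 with AmTARS at 1 h, 1.44 and 1.51 at 3 h, 1.44 and 1.37 with Pam3csk4 at 1 h and 1.37 and 1.30 at 3 h, against 1.62 and 1.59 in the control libraries. The 8 treated libraries lay below both control libraries, and the differences of the group means from the control mean were -0.11, -0.13, -0.20 and -0.27. The ratio of Psmb9 to Psmb6 stood apart with Pam3csk4 at 3 h, at -2.03 and -2.22 against -1.75 and -1.68 in the control libraries, a difference of -0.41. In the other groups it differed from control by -0.06 (AmTARS 1 h), -0.03 (AmTARS 3 h) and -0.08 (Pam3csk4 1 h). The ratio of Psmb10 to Psmb7 went the other way, with differences of 0.20, 0.10, 0.22 and 0.12 in the order AmTARS 1 h, AmTARS 3 h, Pam3csk4 1 h and Pam3csk4 3 h, and the 3 h libraries of either ligand overlapped the control libraries. After the correction for length and GC content, an alternative chosen after seeing the data, the differences were 0.02, -0.02, -0.04 and -0.15 for Psmb8 to Psmb5, 0.03, 0.05, 0.04 and -0.32 for Psmb9 to Psmb6, and 0.15, 0.06, 0.15 and 0.10 for Psmb10 to Psmb7. Psmb8 to Psmb5 with AmTARS at 1 h, and Psmb9 to Psmb6 in the comparisons other than Pam3csk4 3 h, thus changed sign. An exact two-sided permutation test over 2 against 2 libraries cannot give a p under 0.333, so none of these differences could pass. The ratios compare mRNA and do not measure the assembled particles.

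**Figure D3:**
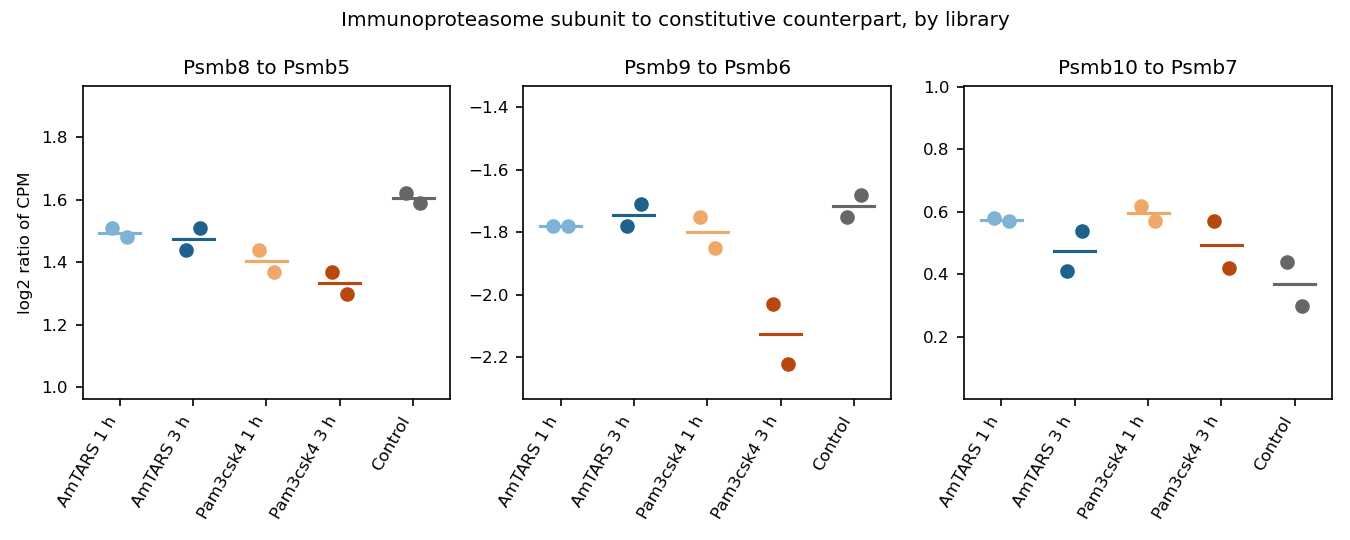
Log2 ratio of the CPM of each immunoproteasome subunit to that of the constitutive subunit it replaces, by library (points) with the group mean (line). Psmb8 to Psmb5 is lower in every treated library than in both control libraries, Psmb9 to Psmb6 is lowest in the Pam3csk4 3 h libraries, and Psmb10 to Psmb7 is higher in all 1 h libraries than in both control libraries. The values are as deposited, without the length and GC correction.

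The rise over control moved with transcript length. Across 11367 tested genes with an annotated transcript, fold change and length had a Spearman's rho of -0.73 (AmTARS, 1 h), -0.661 (AmTARS, 3 h), -0.728 (Pam3csk4, 1 h) and -0.505 (Pam3csk4, 3 h), with short transcripts on the higher side in treated libraries. Proteasome transcripts are short: their median length was 1490 nt, with 1162.5 nt for the 14 constitutive 20S subunits and 1636 nt for the 17 subunits of the 19S cap, against 2990 nt over all tested genes. Within the 44 genes rho was -0.51, -0.47, -0.46 and -0.51 in the same 4 comparisons. These correlations run across genes, which share libraries and are not independent replicates. The comparisons were therefore repeated after a trend on transcript length and GC content had been removed from each library.

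After that correction the number of proteasome genes that rose was 9 for AmTARS at 1 h, 18 for AmTARS at 3 h, 10 for Pam3csk4 at 1 h and 26 for Pam3csk4 at 3 h, and Psme2b alone fell in each. The corrected comparisons called 8.11%, 10.8%, 11.6% and 20.7% of all genes higher and 6.08%, 7.74%, 11.2% and 21.2% lower in the same order. Of the genes that rose as deposited, 8 of 29, 17 of 32, 9 of 31 and 25 of 39 also rose after it. The median log2 fold changes were 0.06, 0.10, 0.07 and 0.14. Without control replicate 2 the corrected counts of changed genes were 5 for AmTARS at 1 h and 7 for AmTARS at 3 h, against 10 and 19 with it. Those counts were 6 and 12 without control replicate 3, 6 at 1 h without AmTARS 1 h replicate 2 and 8 at 3 h without AmTARS 3 h replicate 1. Genes that rose in all 4 comparisons after the correction were Psma2, Psma3, Psmb1, Psmb4, Psmb8, Psmb10, Psmd5, Psmd9 and Psmd13. Their transcripts run from 1183 nt for Psmb4 to 4397 nt for Psmd5, and Psma2 and Psma3 have principal transcripts of 2911 and 2846 nt. The median over a gene's transcripts is also 2911 nt for Psma2, but 1852.5 nt for Psma3. For Psmd13 it is 1382 nt, against 1989 nt for the principal transcript. The corrected values depend on this choice.

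Psmd9, a chaperone of the 19S base, kept nearly the whole of its rise. It was at 32.9 and 32.4 CPM with AmTARS at 1 h, 32.1 and 31.3 CPM at 3 h, 38.8 and 33.1 CPM with Pam3csk4 at 1 h and 32.2 and 32.9 CPM at 3 h, against 26.2 and 26.0 CPM in the control libraries. Every treated library lay above both control libraries, with log2 fold changes of 0.31, 0.27, 0.44 and 0.31 (SE 0.07 each) as deposited and 0.29, 0.24, 0.42 and 0.30 after the correction. Psma2, an alpha ring subunit, was at 126 and 122 CPM with AmTARS at 1 h, 134 and 128 CPM at 3 h, 136 and 127 CPM with Pam3csk4 at 1 h and 131 and 146 CPM at 3 h, against 102 and 110 CPM in the control libraries. Its log2 fold changes were 0.22, 0.30, 0.31 and 0.38 (SE 0.06 each) as deposited and 0.26, 0.35, 0.39 and 0.37 after the correction. After the correction 2, 3, 2 and 3 of the 3 chaperones of the 19S base and 1, 3, 1 and 9 of the 17 subunits of the 19S cap were higher. These counts stand against 8.11%, 10.8%, 11.6% and 20.7% of all genes called higher in the same order. Among these chaperones and subunits Psmd5 at 1 h with either ligand, Psmc6 with AmTARS at 3 h and Psmd1 with Pam3csk4 at 3 h passed only after the correction. Psmd10 lost its calls at 1 h with either ligand.

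For single genes the correction took away much of the difference. Psmb5 had corrected log2 fold changes of 0.12 and 0.15 for AmTARS at 1 h and 3 h and 0.17 and 0.26 for Pam3csk4, of which the first did not pass (adjusted p = 0.068). At 1 h Psmb6 (0.07 with either ligand), Psmb7 (0.09 with AmTARS and 0.10 with Pam3csk4) and Psme2 (0.10 and 0.08) lost their calls. At 3 h Psmb6, Psmb7 and Psme2 kept them with either ligand. Psmb10 kept its call in all 4 comparisons, at 0.23, 0.22, 0.25 and 0.29, and so did Psmb8, at 0.14, 0.14, 0.14 and 0.11. Psmb9 passed for AmTARS at 3 h alone, with 0.19 (adjusted p = 0.00871) against 0.11, 0.11 and 0.03 in the other comparisons. With the replicate number added to the corrected model, 6 of these genes had no call for AmTARS at 3 h. They were Psmb5 (0.13), Psmb6 (0.11), Psmb7 (0.10), Psmb8 (0.11), Psmb9 (0.15) and Psme2 (0.12). Psmb5 (0.15) and Psmb8 (0.11) then had no call for Pam3csk4 at 1 h either. Psme1 passed in none, with 0.04, 0.07, -0.01 and 0.09. The correction also removes any change that goes with length or GC content, so the values with and without it do not bound the difference.

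**Figure D4:**
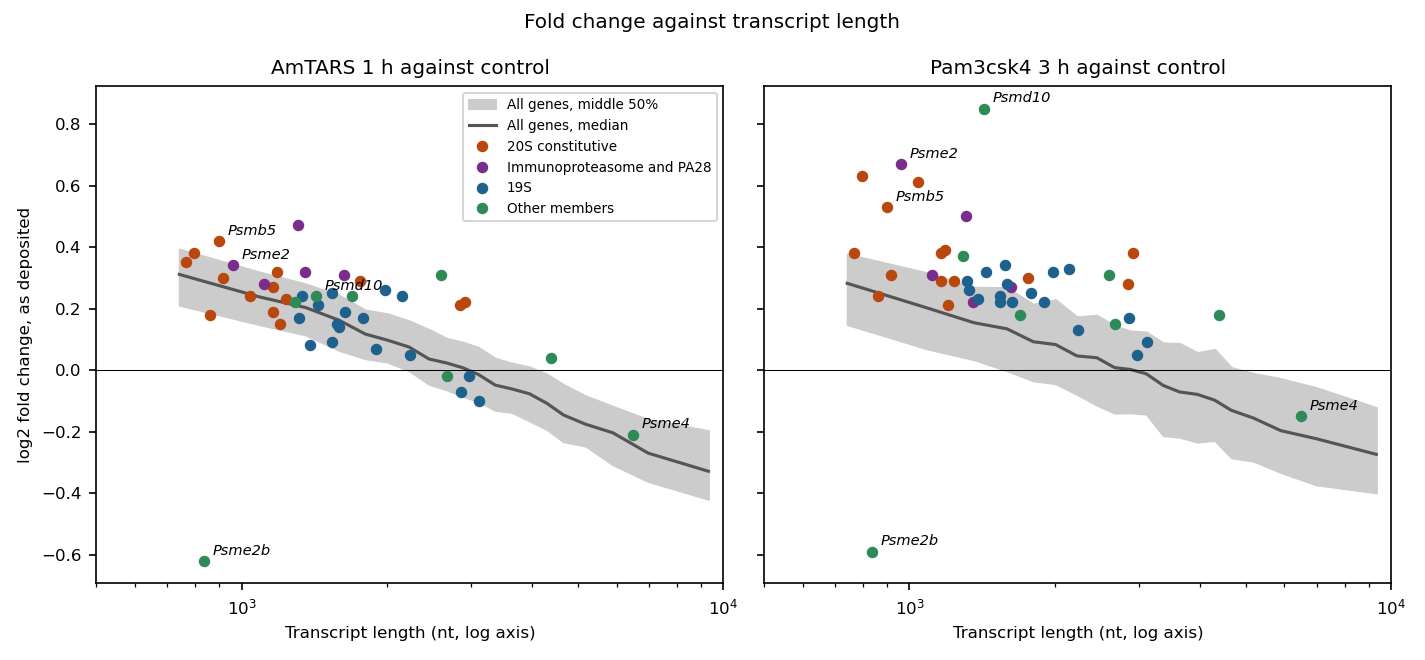
Log2 fold change as deposited against transcript length (log axis) for AmTARS at 1 h (left) and Pam3csk4 at 3 h (right), with the median and the middle 50% of all tested genes in bins of length. At AmTARS 1 h most proteasome genes lie in or near the grey band, Psme2b lies far below it, and at Pam3csk4 3 h Psmd10 and Psme2 lie far above it.

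The ligands differed at 3 h in 4 proteasome genes, each lower with AmTARS than with Pam3csk4. This comparison called 8.04% of all tested genes higher and 9.08% lower with AmTARS, so 0 higher and 4 lower of 44 is no more than the share over all genes. After the length and GC correction the same 4 genes were lower, and Psmb9 was higher with AmTARS (0.16, SE 0.05, adjusted p = 0.0213), in a comparison that then called 11.1% of all genes higher and 10.9% lower. That count of 5 was 15 without Pam3csk4 3 h replicate 2 and 3 without Pam3csk4 3 h replicate 3. At 1 h 0 of 44 genes differed between the ligands in limma, with 0.00877% of all tested genes called higher and 0.175% lower, and 0 after the correction, with 0.0352% and 0.229% called. At an unadjusted p under 0.05 there were 3 at 1 h, all lower with AmTARS, and voom on the recovered reads also called 0. Both AmTARS 1 h libraries lay below both Pam3csk4 1 h libraries in 18 of 44 genes and above them in 0. Of all tested genes 18.8% and 18.9% did so. At 3 h these counts were 16 below and 2 above, against 26.5% and 28.6%. Fold change and length had a Spearman's rho of 0.345 between the ligands at 1 h across 11367 genes, with short transcripts lower with AmTARS.

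Psmd10 encodes gankyrin, a chaperone that helps to assemble the base of the 19S cap, and showed the largest of these 4 differences. It was at 40.7 and 37.4 CPM in the AmTARS 1 h libraries, 46.9 and 45.4 CPM in the AmTARS 3 h libraries, 38.3 and 37.4 CPM in the Pam3csk4 1 h libraries and 55.9 and 64.7 CPM in the Pam3csk4 3 h libraries, against 31.5 and 34.5 CPM in the control libraries. Both Pam3csk4 3 h libraries lay above all others, and the AmTARS 3 h libraries came next. At 3 h the log2 fold change over control was 0.47 (SE 0.07, adjusted p = 5.25e-05) for AmTARS and 0.85 (SE 0.07, adjusted p = 5.18e-09) for Pam3csk4, and AmTARS against Pam3csk4 gave -0.37 (SE 0.07, adjusted p = 0.000468). After the correction these values were 0.36, 0.68 and -0.32, and all passed. At 1 h the corrected values over control were 0.10 for AmTARS and 0.04 for Pam3csk4, and neither passed. The change between the times was larger with Pam3csk4 than with AmTARS by 0.42 (SE 0.10, adjusted p = 0.00756), and Psmd10 was 1 of 44 proteasome genes to pass this test, which called 5.71% of all tested genes higher and 3.49% lower. That count was 0 without AmTARS 1 h replicate 2 or Pam3csk4 3 h replicate 3 (0.36 and 0.31 for Psmd10), 2 without either Pam3csk4 1 h library and 4 without Pam3csk4 3 h replicate 2. After the correction Psmd10, Psme2 and Psmb6 passed it (0.37, 0.30 and 0.22), with 6.9% of all genes called higher and 5.13% lower, and 6 passed without Pam3csk4 3 h replicate 2. Psmd10 lies on chromosome X at 140948429 to 140956728, minus strand (mm10).

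Psme2, the beta subunit of PA28, was at 174 CPM in both AmTARS 1 h libraries, 183 and 175 CPM in the AmTARS 3 h libraries, 189 and 170 CPM in the Pam3csk4 1 h libraries and 205 and 233 CPM in the Pam3csk4 3 h libraries, against 132 and 141 CPM in the control libraries. The Pam3csk4 3 h libraries were the highest and both lay above the AmTARS 3 h libraries. At 3 h the log2 fold change over control was 0.38 (SE 0.06, adjusted p = 9.52e-05) for AmTARS and 0.67 (SE 0.06, adjusted p = 1.83e-08) for Pam3csk4, and AmTARS against Pam3csk4 gave -0.29 (SE 0.06, adjusted p = 0.00137). After the correction the values over control were 0.17 and 0.45, both called, and the difference between the ligands was -0.28. Its partner Psme1 (chr14:55578123-55581529, plus strand), which lies close to Psme2 (chr14:55587441-55591113, minus strand), differed between the ligands at 3 h by -0.02 (SE 0.06, adjusted p = 0.841).

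Psma6, an alpha ring subunit, and Psmb6, the caspase-like beta subunit, were the other 2 genes. Psma6 was at 115 and 114 CPM in the AmTARS 1 h libraries, 129 and 121 CPM in the AmTARS 3 h libraries, 124 and 113 CPM in the Pam3csk4 1 h libraries and 136 and 161 CPM in the Pam3csk4 3 h libraries, against 91.5 and 102 CPM in the control libraries. Psmb6 was at 218 and 215 CPM in the AmTARS 1 h libraries, 229 and 214 CPM in the AmTARS 3 h libraries, 237 and 221 CPM in the Pam3csk4 1 h libraries and 239 and 278 CPM in the Pam3csk4 3 h libraries, against 164 and 169 CPM in the control libraries. For both genes Pam3csk4 3 h replicate 3 was the highest library. AmTARS against Pam3csk4 gave -0.24 (SE 0.07, adjusted p = 0.0173) for Psma6 and -0.22 (SE 0.06, adjusted p = 0.0125) for Psmb6. Both calls were lost without Pam3csk4 3 h replicate 3 (-0.12 and -0.11), without AmTARS 3 h replicate 3 (-0.20 and -0.17) and under quantile scaling (-0.20 and -0.16). With Pam3csk4 at 3 h Psma6 was above control by 0.61 (SE 0.07) and Psmb6 by 0.63 (SE 0.06), and with AmTARS at 3 h by 0.37 and 0.41. The count of 4 genes became 2 without Pam3csk4 3 h replicate 3, 2 without AmTARS 3 h replicate 3 and 9 without Pam3csk4 3 h replicate 2.

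**Figure D5:**
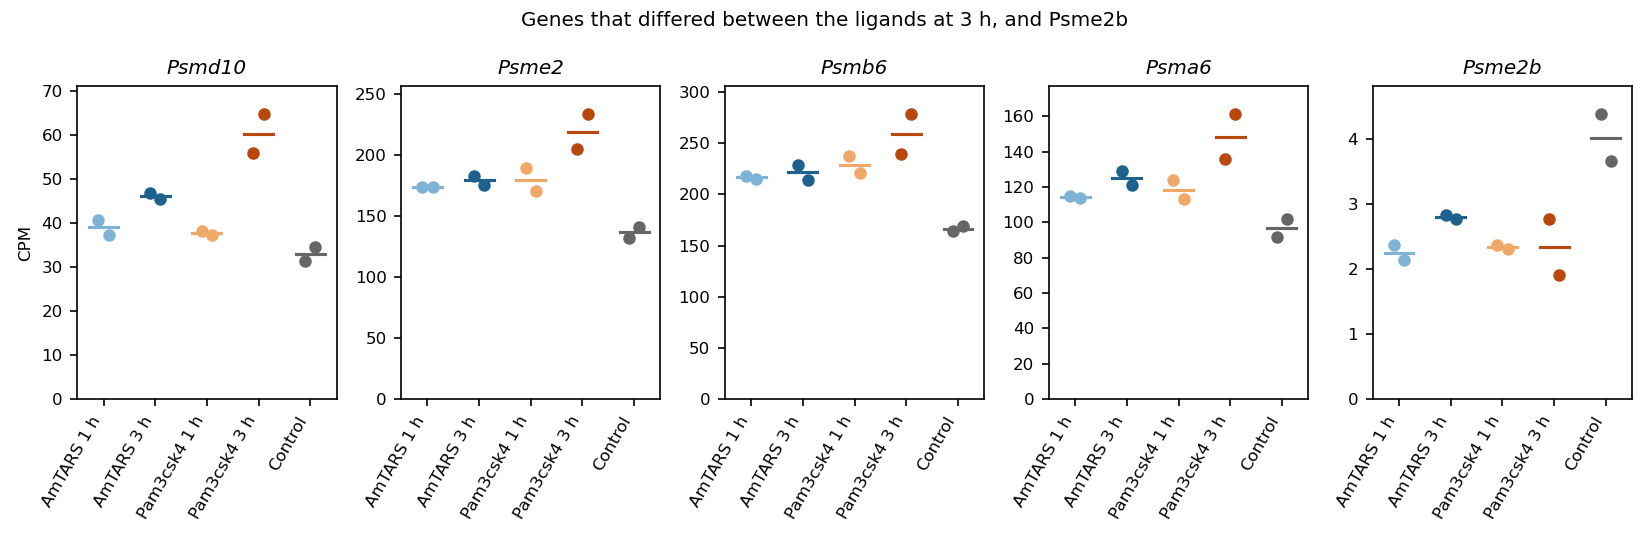
CPM in each library (points) and the group mean (line) for the 4 genes that differed between the ligands at 3 h and for Psme2b, with axes that start at 0. Both Pam3csk4 3 h libraries are the highest for the 4 genes, and for Psme2b both control libraries are the highest.

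Between 1 h and 3 h of Pam3csk4, 8 of 44 genes rose and 0 fell. Of all tested genes 16.2% were called higher and 15.3% lower, so the 8 that rose are close to the share over all genes. Psmd10 rose by 0.65 (SE 0.07), Psma6 by 0.32 (SE 0.07), Psme2 by 0.29 (SE 0.06) and Psmd11, a 19S lid subunit, by 0.22 (SE 0.06). Psmd7, also of the lid, rose by 0.18, Psmb6 by 0.17, Psmd1, a scaffold of the base, by 0.16, and Psme3, the subunit of the nuclear activator PA28 gamma, by 0.16. Without Pam3csk4 3 h replicate 3 the calls of Psmd11 (0.13), Psmd7 (0.11), Psmb6 (0.06), Psmd1 (0.13) and Psme3 (0.11) were lost. Those of Psmd11 (0.19), Psmd7 (0.17), Psmd1 (0.15) and Psme3 (0.14) were lost without Pam3csk4 1 h replicate 1, that of Psmb6 (0.12) without Pam3csk4 1 h replicate 3, and those of Psmd7 (0.12), Psmb6 (0.09) and Psme3 (0.10) under quantile scaling. All 8 also rose after the length and GC correction, when 11 rose and Psmb1 fell, with 16.4% of all genes called higher and 16.9% lower. The count of 8 became 4 without Pam3csk4 3 h replicate 3 and 4 without Pam3csk4 1 h replicate 1, and the corrected count of 12 became 7 without Pam3csk4 3 h replicate 3 and 21 without Pam3csk4 3 h replicate 2. The same step with AmTARS changed 0 of 44 genes in limma and in voom, with 1.81% of all tested genes called higher and 0.57% lower. At an unadjusted p under 0.05 there were 4 genes, all higher. After the correction Psmd10 rose with AmTARS too, by 0.26 (SE 0.05, adjusted p = 0.00492), with 2.66% of all genes called higher and 1.34% lower. That count of 1 became 0 without AmTARS 1 h replicate 3 or AmTARS 3 h replicate 3, and 3 without either Pam3csk4 3 h library, which takes part through the shared estimate of the spread.

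Psme2b and Psme4 were the genes that fell. Psme2b was at 2.36 and 2.13 CPM with AmTARS at 1 h, 2.83 and 2.76 CPM at 3 h, 2.37 and 2.31 CPM with Pam3csk4 at 1 h and 2.76 and 1.91 CPM at 3 h, against 4.37 and 3.66 CPM in the control libraries. Both control libraries lay above every treated library. Its log2 fold changes were -0.62, -0.40, -0.58 and -0.59 (SE 0.13 each) and after the correction -0.86, -0.61, -0.88 and -0.83, called each time. The call for AmTARS at 3 h was lost without either AmTARS 3 h library or control replicate 2 (-0.41, -0.38 and -0.30). Psme2b (chr11:48945354-48946190, minus strand) lies inside Gm12185 on the same strand and overlaps 9930111J21Rik1, and the sources used here do not say how shared reads were counted, so its values and, to a smaller degree, those of Psme2 are uncertain.

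Psme4, the large activator PA200, has a transcript of 6491 nt. It was at 72.6 and 71.0 CPM with AmTARS at 1 h, 79.4 and 75.6 CPM at 3 h, 72.0 and 73.6 CPM with Pam3csk4 at 1 h and 75.3 and 74.8 CPM at 3 h, against 83.4 and 83.5 CPM in the control libraries. As deposited it fell by 0.21 with AmTARS at 1 h and by 0.19 and 0.15 with Pam3csk4 at 1 h and 3 h, and for AmTARS at 3 h it had -0.11 and did not pass. After the length and GC correction the sign turned round, with 0.04, 0.10 and 0.04 for those 3 falls and no call. The fall with Pam3csk4 at 3 h also lost its call, at -0.15, without Pam3csk4 3 h replicate 3 or either control library.

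Genes outside the symbol pattern that work with the proteasome were described by count alone. Their counts stand against 18.9%, 18.8%, 23.9% and 24.7% of all tested genes called higher and 19.8%, 17.9%, 24.8% and 24.2% called lower, in the order AmTARS 1 h, AmTARS 3 h, Pam3csk4 1 h and Pam3csk4 3 h. Of 6 assembly factors 5 were tested, and 3, 3, 5 and 3 rose in the order AmTARS 1 h, AmTARS 3 h, Pam3csk4 1 h and Pam3csk4 3 h. Psmg4 rose by 0.43, 0.37, 0.48 and 0.23, Psmg3 by 0.26, 0.23, 0.45 and 0.40, and Pomp, the chaperone of beta ring assembly, by 0.32, 0.22, 0.43 and 0.23. After the correction Pomp alone rose, with 0.20, 0.12, 0.28 and 0.11. Of 14 associated factors 4 rose in each of the first 3 comparisons and 6 with Pam3csk4 at 3 h, and 3, 0, 4 and 2 fell. Shfm1, a small 19S lid subunit, rose by 0.40, 0.30, 0.44 and 0.40, and by 0.27, 0.23, 0.34 and 0.22 after the correction. Adrm1, a ubiquitin receptor, rose by 0.22, 0.22, 0.27 and 0.37 and kept a call after the correction with Pam3csk4 at 3 h alone (0.16). Zfand5, a protein that binds and activates the proteasome, rose with Pam3csk4 at 3 h alone as deposited (0.33) and in all 4 comparisons after the correction (0.35, 0.33, 0.30 and 0.53). Txnl1, a thioredoxin-like protein of the 19S cap, rose by 0.21, 0.16 and 0.32 as deposited in the comparisons other than AmTARS 1 h, and by 0.28, 0.35, 0.37 and 0.41 in all 4 after the correction.

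The transcription factor NRF1 (Nfe2l1) is known to drive proteasome genes when the particle is short of capacity, and the protease DDI2 is known to release it. Of 8 genes of this pathway 0 rose and 1 fell with AmTARS at 1 h, and 2 and 1 with AmTARS at 3 h. With Pam3csk4 1 rose and 2 fell at 1 h, and 5 and 1 at 3 h. In that order the comparisons called 18.9%, 18.8%, 23.9% and 24.7% of all tested genes higher and 19.8%, 17.9%, 24.8% and 24.2% lower. Maff, a small MAF partner, rose by 1.56 (SE 0.11), Nfe2l2, the relative NRF2, by 0.64 (SE 0.05), Mafg by 0.51 (SE 0.07) and Nfe2l1 by 0.39 (SE 0.05) with Pam3csk4 at 3 h. With AmTARS at 3 h Maff rose by 0.35 and Nfe2l2 by 0.13, while Nfe2l1 had 0.11 and Mafg 0.12 and neither passed as deposited, whereas both passed after the correction (0.19 and 0.22) and Maff did not (0.21). Ddi2 fell in all 4 comparisons as deposited, by 0.61, 0.48, 0.88 and 0.88 (SE 0.12 each). After the correction it fell with Pam3csk4 alone, by 0.53 and 0.61.

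Of 12 genes of MHC class I peptide loading 5, 6, 5 and 5 rose in the order AmTARS 1 h, AmTARS 3 h, Pam3csk4 1 h and Pam3csk4 3 h, and 3 fell in each, against 18.8% to 24.7% of all tested genes called higher and 17.9% to 24.8% lower. H2-D1 rose by 0.32, 0.30, 0.39 and 0.26 and Tap2 by 0.27, 0.29, 0.28 and 0.32, and both passed in all 4 after the correction as well. Nlrc5, a transactivator of MHC class I and immunoproteasome genes, fell by 0.36, 0.35, 0.38 and 0.35 as deposited and passed in none after the correction. Of 6 interferon transcription factors 2, 1, 1 and 1 rose and 1, 0, 2 and 2 fell, against the same shares of all tested genes. Irf1, which is known to drive Psmb9, rose by 0.17 (SE 0.06) with AmTARS at 1 h, by 0.42 (SE 0.06) with Pam3csk4 at 1 h and by 0.24 (SE 0.06) with Pam3csk4 at 3 h, and Stat2 fell by 0.20, 0.27 and 0.43 in the same comparisons. Both AmTARS calls were lost after the correction (0.11 and -0.08). Irf8 fell by 0.36 with Pam3csk4 at 3 h alone. Of 6 ubiquitin and E1 genes 4, 3, 4 and 3 rose and 2, 1, 2 and 0 fell, against the same shares. Rps27a rose by 0.37, 0.35, 0.48 and 0.32, and Uba6, an E1 enzyme for ubiquitin, fell by 0.56, 0.33 and 0.62 in the first 3 comparisons. After the correction Rps27a rose with AmTARS at 3 h (0.13) and Pam3csk4 at 1 h (0.17) and had 0.13 and 0.08 without a call in the others, and Uba6 fell by 0.30 and 0.26 at 1 h with AmTARS and Pam3csk4 and had -0.07 without a call with AmTARS at 3 h.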

How the data were processed

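Poly-A RNA libraries were made with a stranded kit, per the labels' protocols. Reads were aligned with STAR 2.5.1 to mm10 and handled in R 3.3.0, per the submitters' processing notes, and nothing here states the counting tool, its use of strand, the annotation or the scaling between libraries. Values were deposited by the authors as log2(CPM + 1) for 11617 genes in 10 libraries, and whole reads could be recovered from 100% of the values to within 0.1 read. The lowest value was 3 reads, and the CPM of a library summed to 998260 to 1037796 in treated and to 959639 and 960837 in control libraries.

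Genes whose mean reached 1 CPM (11407) were fitted with limma 3.58.1 in R 4.3.3, with 1 mean for each of 5 groups, an intensity trend, 5 residual and 14.7 prior degrees of freedom, and 9 contrasts. P-values were adjusted by Benjamini-Hochberg over all tested genes within a contrast, and adjusted p below 0.05 was called. SE is the moderated standard error, and log2 fold changes on the log2(CPM + 1) scale understate changes of low genes. For the correction, each library's deviations from the gene means were fitted against natural splines (5 degrees of freedom each) of log2 transcript length and GC content of the GENCODE M21 principal transcript (11367 genes), and the fit was removed. The calculation was tested on simulated data.

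Always named were the immunoproteasome genes and the counterparts Psmb5, Psmb6 and Psmb7, together with up to 3 called genes with the largest change in each direction of a comparison and the 3 most changed called genes of other lists. A gene that these rules would name is not reported here. Genes named beyond these rules were chosen after their values were seen. Members, lists and rules were chosen with earlier results of these data known. Every count was repeated with no filter or a mean of 5 CPM, a pseudocount of 0.25 or 5, quantile scaling, voom on the recovered reads, a replicate block, and leaving out each library. Figures were drawn with matplotlib 3.10.9.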

Additional observations from a re-analysis of the deposited data

Results flagged for a closer look

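Psmd10, the gankyrin gene, differed between the ligands in its change between 1 h and 3 h, by 0.42 on the log2 scale (Pam3csk4 minus AmTARS, SE 0.10, limma adjusted p = 0.00756). The group means were 60.3 ± 6.17 CPM with Pam3csk4 at 3 h and 37.9 ± 0.605 CPM at 1 h, and 46.2 ± 1.08 CPM with AmTARS at 3 h and 39.1 ± 2.39 CPM at 1 h (SD, n = 2 each). After the length and GC correction the difference was 0.37 (SE 0.08, adjusted p = 0.00145). The call was lost without AmTARS 1 h replicate 2 (0.36) and without Pam3csk4 3 h replicate 3 (0.31).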

How the results depend on the processing

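Counts of proteasome genes changed against control, in the order AmTARS 1 h, AmTARS 3 h, Pam3csk4 1 h and Pam3csk4 3 h, were 31, 33, 33 and 41 as deposited and 10, 19, 11 and 27 after the length and GC correction. An alternative chosen after seeing the data took the median length over a gene's transcripts in place of the principal transcript's length. It gave 11 for AmTARS 1 h and 18 for Pam3csk4 1 h. At 3 h it called 24 genes higher and 1 lower with AmTARS, and 32 higher and 1 lower with Pam3csk4. With the principal transcript 18 and 26 genes were higher at 3 h, and 1 was lower with either ligand. Leaving out 1 library at a time, with the lone library assumed to vary like the other groups, gave 19 to 33, 21 to 35, 25 to 35 and 30 to 41 as deposited, and 5 to 13, 7 to 23, 8 to 12 and 19 to 35 after the correction. The ranges were 0 to 0 for the ligands at 1 h, 2 to 9 for the ligands at 3 h (corrected 3 to 15), 0 to 1 for AmTARS 3 h against 1 h (corrected 0 to 3), 4 to 11 for Pam3csk4 3 h against 1 h (corrected 7 to 21), and 0 to 4 for the difference of these changes (corrected 2 to 6). AmTARS 3 h against 1 h gave 1 as deposited without either Pam3csk4 3 h library.

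Deviations of same-numbered libraries correlated at -0.179, -0.0377, 0.117 and 0.204 across genes. Only pairs of groups that share both replicate numbers could be compared, so these values cannot settle whether the numbers pair the libraries. With a replicate block 21 genes changed for AmTARS 3 h against control, 8 between the ligands at 3 h and 3 in the difference of the changes. Block and correction together gave 10, 7, 8 and 27 against control, 1 for AmTARS 3 h against 1 h, 13 for Pam3csk4 3 h against 1 h and 4 for the difference of the changes. The correction without the block gave 1 for AmTARS 3 h against 1 h and 3 for the difference of the changes, with either choice of length. Crossed numbers of the AmTARS 1 h libraries, tried after seeing the data, left 10 of 10 named values of that comparison as called.

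Among named genes, Psme4 turned from a fall to 0.04, 0.10 and 0.04 (AmTARS 1 h, Pam3csk4 1 h and Pam3csk4 3 h) under the correction, to 0.04, 0.06 and 0.04 with the block added and to 0.07, 0.14 and 0.07 with median lengths, and Psme1 with Pam3csk4 at 1 h turned to -0.01, -0.05 and -0.0035. Other filters, pseudocounts and voom left all 54 named values tested under them as called, except that a mean of at least 5 CPM kept 50 of them in the test. Quantile scaling lost 5 calls and the replicate block 1. The correction lost 13 beside the 4 with a turned sign, block and correction together 21 beside 4, and median lengths 10 beside 4. The cause of these shifts was not tested.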
